A study of Mus with 7 samples.

Results

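The 10 genes followed here make and remodel fatty acids, and were measured in 7 single-cell RNA-seq libraries of mouse macrophages. They were chosen by symbol, with earlier results of these data known, out of the 31053 genes in the count tables. All 10 had UMIs in every library. Acly, Acaca and Fasn build palmitate, Scd1 and Scd2 are delta-9 desaturases, Fads1 and Fads2 are front-end desaturases, and Elovl1, Elovl5 and Elovl6 are elongases.

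The cells were fetal liver-derived macrophages (FLMs), a self-renewing wild-type mouse culture grown with 30 ng/mL GM-CSF. Con cells were kept in 10% FBS and collected untreated. The other 6 libraries came from cells held for 24 h in 0.25% FBS with 25 µM DHA complexed with BSA, or with the same 8.3 µM of BSA and no DHA (Veh). The Veh.LPS.0 and DHA.LPS.0 cells were then collected, and the others were given medium with 20 ng/mL LPS for 1 h (Veh.LPS.1, DHA.LPS.1) or 4 h (Veh.LPS.4, DHA.LPS.4). DHA is a long-chain omega-3 polyunsaturated fatty acid, and LPS is the bacterial ligand of TLR4. Con and Veh.LPS.0 differ in BSA and time in culture as well as in serum, and LPS came with a change of medium, so these cannot be told apart. Whether DHA stayed in the medium with LPS is not given in the sources used here. Each condition had 1 library, differences between them stand without replicates, and every interval below covers counting error alone.

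De novo synthesis starts from citrate. ATP citrate lyase (Acly) cuts it to acetyl-CoA, acetyl-CoA carboxylase 1 (Acaca) carboxylates that to malonyl-CoA, and fatty acid synthase (Fasn) joins the units into palmitate. Elongases add carbons, stearoyl-CoA desaturases put in the double bond of palmitoleate and oleate, and Fads2 and Fads1 act in turn on the essential fatty acids on the way to arachidonic acid, EPA and DHA. In many tissues SREBP-1c (from Srebf1) and the liver X receptors switch these genes on, SREBP-2 (from Srebf2) drives the cholesterol enzymes, and dietary polyunsaturated fatty acids lower SREBP-1c activity.

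Barcodes with more than 20000 UMIs, at least 2000 genes and a mitochondrial share under 20% were kept, which left 692 to 3073 cells and 22045775 to 125716982 UMIs per library. The mitochondrial limit removed 74.4% to 80.0% of barcodes in the 3 DHA libraries and 29.0% to 54.7% in the other 4. Kept barcodes shared between any pair of libraries numbered 0 to 4. All 9 macrophage markers were detected in every library (5817 to 7089 CPM in sum). Adipocyte markers summed to at most 0.0314 CPM, and of the hepatocyte markers Alb, Ttr and Serpina1a had no UMI while Afp had 5.45 to 7.54 CPM. Afp UMIs were in 10.4% to 18.4% of cells. Of the neutrophil markers, S100a9 had no UMI, while S100a8 had 0.0571 to 6.99 CPM, with UMIs in 9.39% of DHA.LPS.4 cells. Levels are UMIs of a gene over all UMIs of the library, scaled to counts per 1000000 (CPM). Each UMI marks 1 molecule at its 3′ end, so CPM needs no correction for gene length.

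Scd1 and Scd2 spanned the widest ranges. Scd1 (ENSMUSG00000037071, chr19:44394450-44407709) had 0.915 CPM in Con. In order of 0, 1 and 4 h of LPS, it had 42.3, 37.7 and 17.4 CPM with Veh, then 6.59, 4.43 and 0.544 CPM with DHA. The Con and DHA.LPS.4 values rest on 115 and 12 UMIs. From DHA.LPS.4 to Veh.LPS.0 the level spanned 77.6-fold. Scd2 (ENSMUSG00000025203, chr19:44293676-44306864) had 163 CPM in Con, then 369, 275 and 199 CPM in Veh and 167, 101 and 29.3 CPM in DHA, a 12.6-fold span. All 3 Veh libraries were above Con and all 3 DHA libraries for both genes. The intervals of Scd2 in Con and in DHA.LPS.0 overlapped.

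Both front-end desaturases were also highest in Veh.LPS.0. Fads1 (ENSMUSG00000010663, chr19:10182877-10196874), the delta-5 desaturase, had 58.2 CPM in Con, then 99.6, 92.5 and 69.6 CPM in Veh and 73.7, 70.3 and 53.5 CPM in DHA. Fads2 (ENSMUSG00000024665, chr19:10062765-10101503), the delta-6 desaturase, had 3.31 CPM in Con, then 13.7, 12.8 and 12.9 CPM in Veh and 6.51, 5.31 and 3.49 CPM in DHA. The 3 Veh values of Fads2 had overlapping intervals, as did Con and DHA.LPS.4, where it had 77 UMIs. Fads1 thus varied 1.86-fold over the 7 libraries and Fads2 4.13-fold.

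Of the palmitate genes, Acly (ENSMUSG00000020917, chr11:100476352-100528000) had 52.5 CPM in Con, then 99.1, 88.0 and 69.5 CPM in Veh and 72.4, 63.2 and 43.2 CPM in DHA. Acaca (ENSMUSG00000020532, chr11:84129635-84401651) had 25.6 CPM in Con, then 27.0, 24.7 and 17.7 CPM in Veh and 18.7, 15.1 and 10.6 CPM in DHA. Fasn (ENSMUSG00000025153, chr11:120805958-120825166) had 51.7 CPM in Con, then 41.6, 62.2 and 59.5 CPM in Veh and 27.4, 35.0 and 36.9 CPM in DHA. Fasn was the exception in its order. It was lowest in DHA.LPS.0 and highest in Veh.LPS.1, its level in Veh.LPS.0 was below that in Con, and the intervals of Veh.LPS.1 and Veh.LPS.4 overlapped.

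The elongases differed among themselves. Elovl6 (ENSMUSG00000041220, chr3:129532386-129638495), which lengthens palmitate to stearate, had 25.4 CPM in Con, then 34.5, 33.5 and 15.1 CPM in Veh and 20.8, 19.4 and 8.12 CPM in DHA. Elovl5 (ENSMUSG00000032349, chr9:77917365-77984519), an elongase of polyunsaturated fatty acids, had 39.1 CPM in Con, then 70.9, 59.7 and 20.2 CPM in Veh and 57.7, 45.8 and 18.2 CPM in DHA. Elovl1 (ENSMUSG00000006390, chr4:118426874-118432953), which extends very long saturated chains, stayed between 53.7 CPM in DHA.LPS.1 and 73.7 CPM in Con, a 1.37-fold span. Its annotated span overlaps that of the cell division gene Cdc20 by 53 bases, and Cdc20 went from 102 CPM in Con to 22.0 CPM in Veh.LPS.4, where Elovl1 had 69.0 CPM. Coordinates are those of RefSeq on GRCm38.

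**Figure D1:**
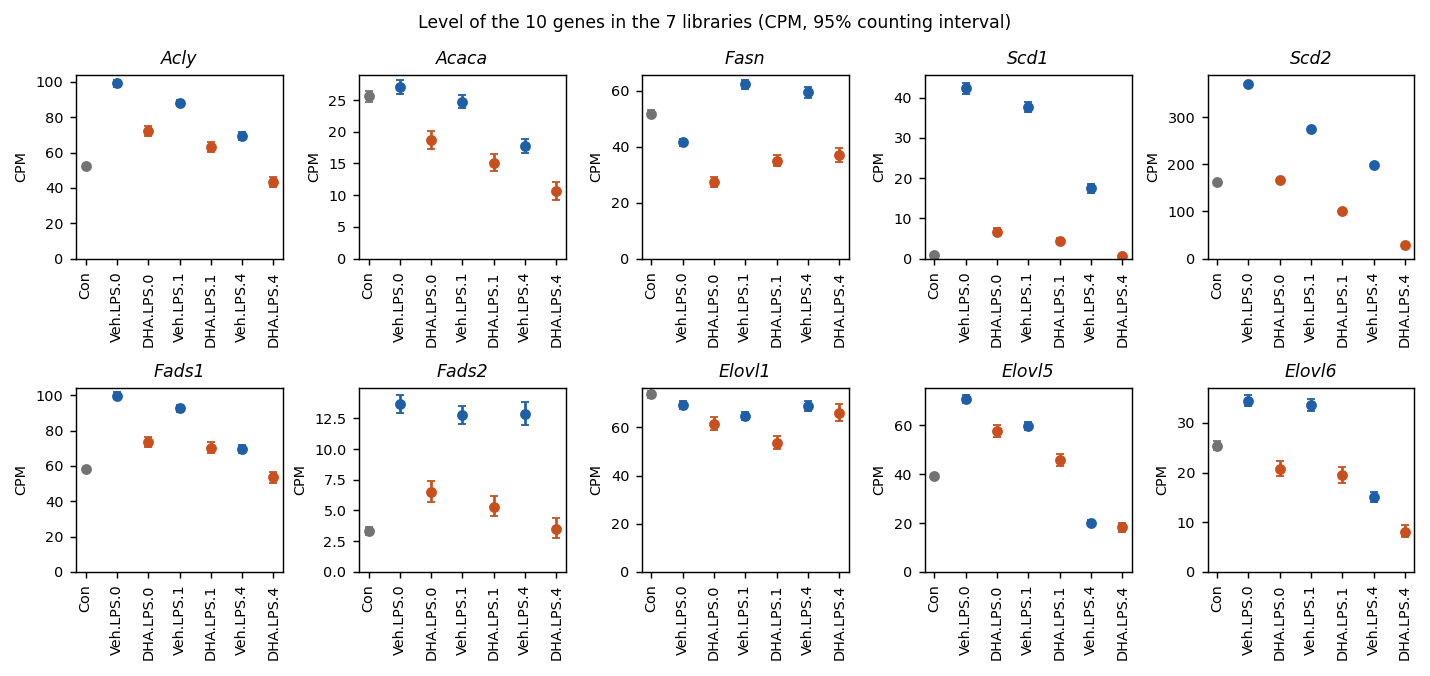
Level of each gene in the 7 libraries in CPM (vertical axis, from 0, a separate scale per gene), with Con in grey, Veh in blue and DHA in orange; bars are 95% counting intervals and each point is 1 library. Scd2 goes from 29.3 CPM in DHA.LPS.4 to 369 CPM in Veh.LPS.0, while Elovl1 stays between 53.7 and 73.7 CPM.

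Summed over the 10 genes, the level was 493 CPM in Con, then 867, 751 and 550 CPM in Veh and 513, 413 and 270 CPM in DHA. Scd2 held the largest part of this sum in 6 of the 7 libraries, with 42.6% in Veh.LPS.0 and 32.7% in DHA.LPS.0. In DHA.LPS.4 it held 10.9%, behind Elovl1 (24.5%), Fads1 (19.8%), Acly and Fasn (13.7%).

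The first comparison asked what moving the cells from 10% to 0.25% FBS with vehicle did to these genes. Desaturase levels were higher in Veh.LPS.0 than in Con. Scd1 was 46.2-fold higher (95% counting interval 38.4 to 56.1), Fads2 4.13-fold (3.69 to 4.62), Scd2 2.27-fold (2.23 to 2.31) and Fads1 1.71-fold (1.66 to 1.76). Acly was 1.89-fold and Elovl5 1.81-fold higher. A gene counts here as higher or lower when its CPM ratio passes 1.5-fold and a UMI was found in at least 25% of cells of either library, and 6 of the 10 genes were higher and 0 lower, where 9.31% of the 8252 genes past the limit on share of cells were higher and 7.76% lower. The other 4 were within 1.5-fold, with log2 ratios of 0.44 for Elovl6, 0.08 for Acaca, -0.09 for Elovl1 and -0.31 for Fasn. The median log2 ratio was 0.82 over the 10 genes and -0.07 over all genes. This was a rule of size with no test, since cells of 1 library are no replicates.

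DHA against Veh at 0 h set cells after 24 h with DHA beside cells without it, before any LPS. The limits on cells kept 698 of 3773 barcodes with DHA and 2481 of 4461 with Veh. With 1 library each, DHA cannot be told apart from this selection or from a difference between libraries. The same holds at 1 and 4 h of LPS. All 10 ratios were under 1. Scd1 was 6.41-fold lower (interval 5.61 to 7.35), Scd2 2.21-fold (2.15 to 2.27), Fads2 (log2 ratio -1.07, -1.28 to -0.86), Elovl6 1.66-fold (1.53 to 1.80) and Fasn 1.52-fold (1.41 to 1.63). These 5 passed the limit downward, where 0.949% of 8434 genes did. With a limit of 50% on the share of cells 4 of them remained, since a Fads2 UMI was found in at most 40.2% of cells. Acaca (log2 ratio -0.53), Acly (-0.45), Fads1 (-0.44), Elovl5 (-0.30) and Elovl1 (-0.17) stayed within it. The median log2 ratio of the 10 was -0.57, and that of all genes was -0.05.

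At 1 h of LPS, 6 of the 10 genes were lower with DHA by more than 1.5-fold, where 1.73% of 7794 genes were. They were the 5 lower at 0 h, with Acaca (1.64-fold lower, 1.49 to 1.82) beside them. Scd1 was 8.50-fold lower (7.18 to 10.1), Scd2 2.72-fold (2.62 to 2.82) and Fads2 2.40-fold (2.04 to 2.84). Fasn was 1.78-fold lower (1.67 to 1.90). Fads1, Elovl1, Elovl5 and Acly stayed within the limit, with log2 ratios from -0.27 to -0.48.

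At 4 h of LPS, 7 of the 10 were lower, where 2.42% of 7672 genes were, and Acly (log2 ratio -0.69, -0.79 to -0.58) had joined the 6 of 1 h. Over every deposited barcode, Acly was past 1.5-fold already at 0 and 1 h (-0.71 and -0.80), so its place depends on the limits on cells. Scd2 was 6.81-fold lower (6.29 to 7.38) and Fads2 3.68-fold lower (2.91 to 4.71). For Scd1, 12 UMIs in DHA.LPS.4 stood against 1020 in Veh.LPS.4, a 32.0-fold lower CPM (18.2 to 62.1). Elovl6 was 1.86-fold, Acaca 1.67-fold and Fasn 1.61-fold lower. The intervals of Elovl1 and Elovl5 included no difference on the CPM scale. With TMM factors, which rescale libraries to their bulk of genes, their log2 ratios were -0.18 and -0.27. The median log2 ratio of the 10 was -0.75 at 1 h and -0.71 at 4 h, and that of all genes was -0.05 and 0.08. Scd1 had the lowest ratio of DHA to Veh among all genes past the limit on share of cells at each of the 3 hours.

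**Figure D2:**
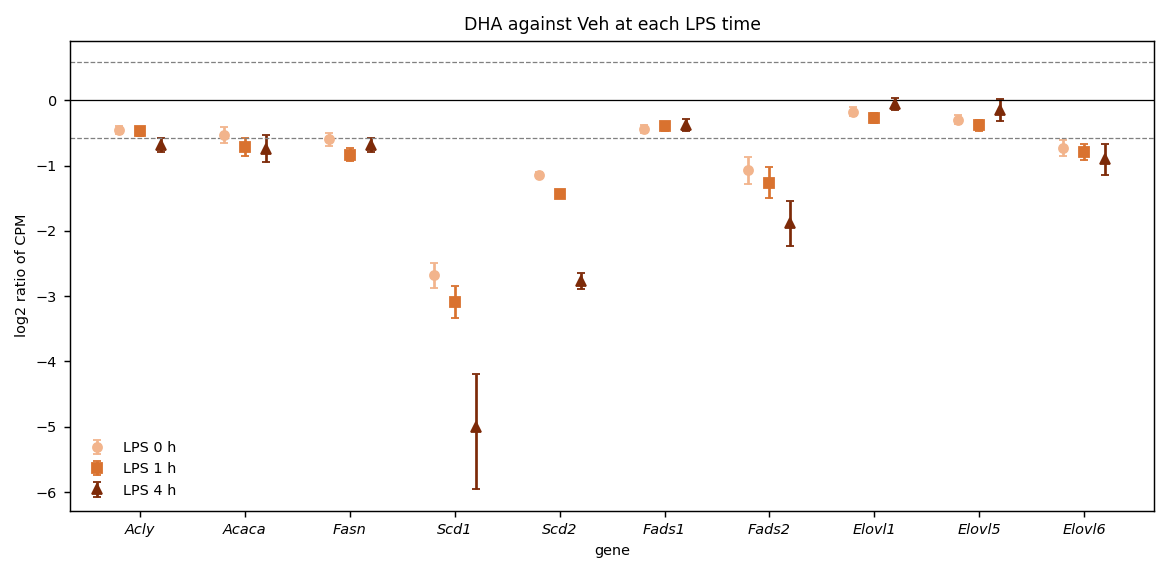
Log2 ratio of CPM in DHA to CPM in Veh (vertical axis) for each gene at 0 h (circles), 1 h (squares) and 4 h (triangles) of LPS, with 95% counting intervals; dashed lines mark 1.5-fold. Scd1 runs from -2.68 to -5.00 and Scd2 from -1.14 to -2.77, while Elovl1 stays between -0.06 and -0.27.

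The ratio of DHA to Veh moved with time in LPS for some of the genes. From 0 to 4 h, its log2 value went down by a further 2.32 for Scd1 (difference -2.32, interval -3.16 to -1.48), with -1.63 for Scd2 (-1.75 to -1.50), -0.81 for Fads2 (-1.21 to -0.42) and -0.23 for Acly (-0.35 to -0.11). For Elovl1 the difference was 0.11 (0.00 to 0.22) on the CPM scale, and -0.02 (-0.13 to 0.09) with TMM factors. The intervals of Acaca, Fasn, Fads1, Elovl5 and Elovl6 included 0 on the CPM scale. With TMM factors the differences of Acaca (-0.34, -0.57 to -0.10), Fasn (-0.22, -0.37 to -0.07) and Elovl6 (-0.30, -0.56 to -0.04) excluded it. By 1 h the intervals of Scd1 (-0.41), Scd2 (-0.30) and Fasn (-0.23) already excluded 0, on both scales.

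Set out by hour within each treatment, the same values show which side moved. LPS for 1 h left all 10 genes within 1.5-fold in Veh, where 8.39% of 8089 genes passed it in either direction. Fasn was nearest, just under the limit, at a log2 ratio of 0.58 (0.52 to 0.64). Scd2 had a log2 ratio of -0.43, and the other 8 lay between -0.25 and -0.04, beside a median of -0.10 over all genes. In DHA cells Scd2 was 1.66-fold lower at 1 h than at 0 h (1.59 to 1.73), and Fasn was 1.28-fold higher (1.17 to 1.39). Scd2 was the 1 gene lower of 9 past the limit on share of cells, where 4.97% of 8474 genes were lower. Scd1, in at most 19.8% of cells, was under that limit, and 1.49-fold lower (1.20 to 1.85).

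After 4 h of LPS in Veh, Elovl5 was 3.51-fold lower (3.30 to 3.74), Scd1 2.43-fold (2.27 to 2.60), Elovl6 2.28-fold (2.11 to 2.45), Scd2 1.85-fold (1.81 to 1.89) and Acaca 1.53-fold (1.42 to 1.64). That is 5 of 10 genes, near the 38.3% of 8385 genes that were lower, and 0 were higher, where 10.2% of genes were. The median log2 ratio over all genes was -0.36 on the CPM scale and 0.07 with TMM factors. With TMM factors Scd2 (-0.46) and Acaca (-0.18) were no longer past 1.5-fold, Fasn (0.95) was past it upward, and Fads2 and Elovl1 turned from -0.09 and -0.01 to 0.34 and 0.42. Elovl5, Scd1 and Elovl6 stayed lower by more than 1.5-fold on both scales. Fasn was the only one of the 10 with a CPM ratio above 1, at 0.52 on the log2 scale (0.45 to 0.58).

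After 4 h of LPS in DHA cells, Scd2 was 5.71-fold lower than at 0 h (5.27 to 6.21), Elovl5 3.17-fold (2.85 to 3.54), Elovl6 2.56-fold (2.17 to 3.03), Fads2 1.86-fold (1.43 to 2.45), Acaca 1.76-fold and Acly 1.68-fold. These were 6 of the 9 genes past the limit on share of cells, where 33.6% of 8477 genes were lower. Scd1 was 12.1-fold lower (6.80 to 23.8), but no more than 19.8% of cells held a UMI in either library, so the size rule leaves it out. The log2 ratios of Elovl5 in Veh and DHA were -1.81 and -1.67, those of Fasn 0.52 and 0.43, and those of Fads1 -0.52 and -0.46. For Scd2 they were -0.89 and -2.51, and for Fads2 -0.09 and -0.90. With TMM factors Acly (-0.45) and Acaca (-0.51) were no longer past 1.5-fold, which left 4 genes lower, and Fasn was past it upward in DHA cells too (0.73).

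**Figure D3:**
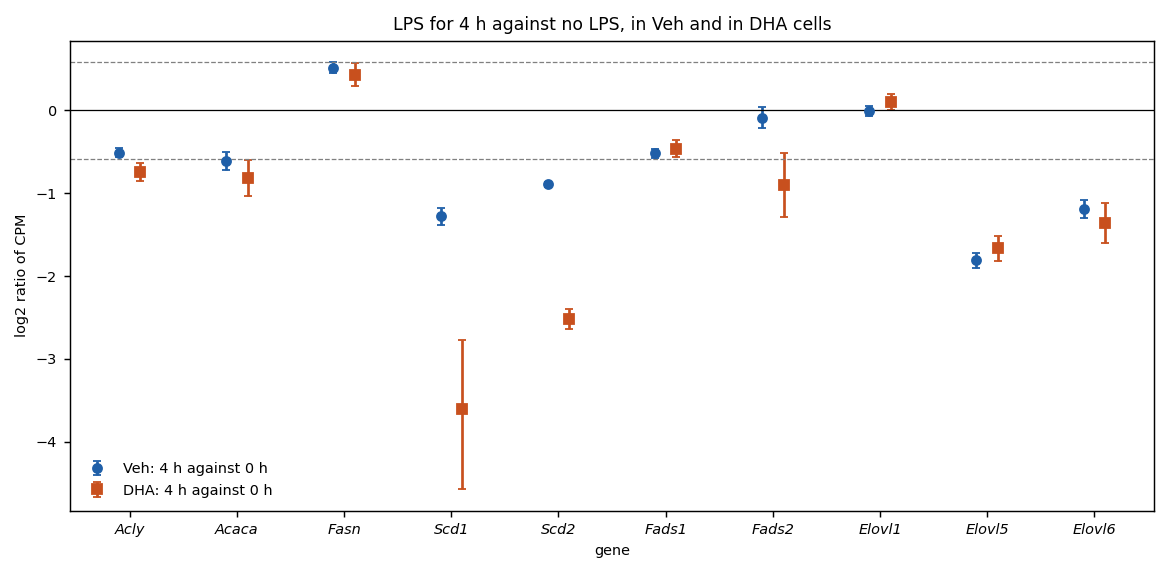
Log2 ratio of CPM at 4 h of LPS to CPM at 0 h (vertical axis) for each gene in Veh (blue circles) and DHA (orange squares), with 95% counting intervals; dashed lines mark 1.5-fold. Elovl5 (-1.81 and -1.67) and Fasn (0.52 and 0.43) lie close together in Veh and DHA, while Scd2 (-0.89 and -2.51) and Scd1 (-1.28 and -3.60) lie apart.

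Members of the same family did not move by the same amount. Of the UMIs of Scd1 and Scd2 together, Scd1 made up 0.559% in Con, then 10.3%, 12.1% and 8.03% with Veh against 3.79%, 4.20% and 1.82% with DHA. Fads2 made up 5.38% of the UMIs of Fads1 and Fads2 in Con, then 12.1%, 12.1% and 15.6% with Veh against 8.12%, 7.02% and 6.13% with DHA. In both pairs the less abundant gene had the larger fold with serum reduction and with DHA at each hour. On chromosome 19, Scd1 and Scd2 lie with 87.6 kb between them, and Fads2 and Fads1 with 81.4 kb between them. Whether other genes lie in these stretches was not looked at. The other stearoyl-CoA desaturases of the chromosome 19 cluster were near 0, with at most 3 UMIs of Scd3 and at most 30 of Scd4 in any library. The Scd genes are similar in sequence, so reads that match more than 1 of them may be missing from the counts, which makes the split between them uncertain.

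To compare shares of cells across depths, each cell was thinned to 20000 UMIs. A Scd1 UMI was then found in 1.72% of Con cells, in 50.8%, 48.4% and 26.2% of Veh cells and in 11.5%, 8.81% and 0.578% of DHA cells at 0, 1 and 4 h. Unthinned shares were 3.75% for Con, then 69.0%, 59.9% and 51.9% for Veh and 19.8%, 13.5% and 1.45% for DHA. Fads2 was found at equal depth in 23.1%, 22.4% and 21.9% of Veh cells and in 10.9%, 10.6% and 6.36% of DHA cells, and without thinning in 40.2%, 31.0% and 49.5%, and 26.8%, 17.9% and 10.6%. Cell types were checked by marker levels alone, and no cells of another type were set apart in which to measure free RNA. These shares thus stand without that comparison.

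For Scd2, the shift ran through the whole distribution of cells. The median cell held 7, 5 and 3 Scd2 UMIs of 20000 in Veh at 0, 1 and 4 h, 3, 1 and 0 in DHA, and 3 in Con. Cells with no Scd2 UMI were 1.49% in Veh.LPS.0 (exact binomial 95% interval 1.05 to 2.05) and 16.1% in DHA.LPS.0 (13.4 to 19.0), 2.60% and 26.4% at 1 h, and 15.5% and 65.2% (61.5 to 68.7) at 4 h. Cells with 7 UMIs or more, the median of Veh.LPS.0, were 57.2% there, 14.5% in DHA.LPS.0 and 0.578% in DHA.LPS.4 (4 of 692 cells). Con and DHA.LPS.0 had the same median, yet 7.39% of Con cells held none and 8.77% held 7 or more. The variance of Scd2 UMIs over their mean (Fano factor, 1 for pure counting) was 1.49 in Con, then 2.03, 2.01 and 3.64 with Veh and 2.89, 2.41 and 2.16 with DHA. For the other 9 genes it lay between 0.88 and 1.53. This factor depends on the mean count, so it does not rank genes or libraries by unevenness over cells. Mean Scd2 was 3.26 UMIs in Con, 7.52 in Veh.LPS.0 and 0.614 in DHA.LPS.4. Scd1 had a mean of 0.869 UMIs in Veh.LPS.0. Elovl6 had 0.166 in DHA.LPS.4, where its factor was 1.53. No measure that allows for the mean was computed.

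**Figure D4:**
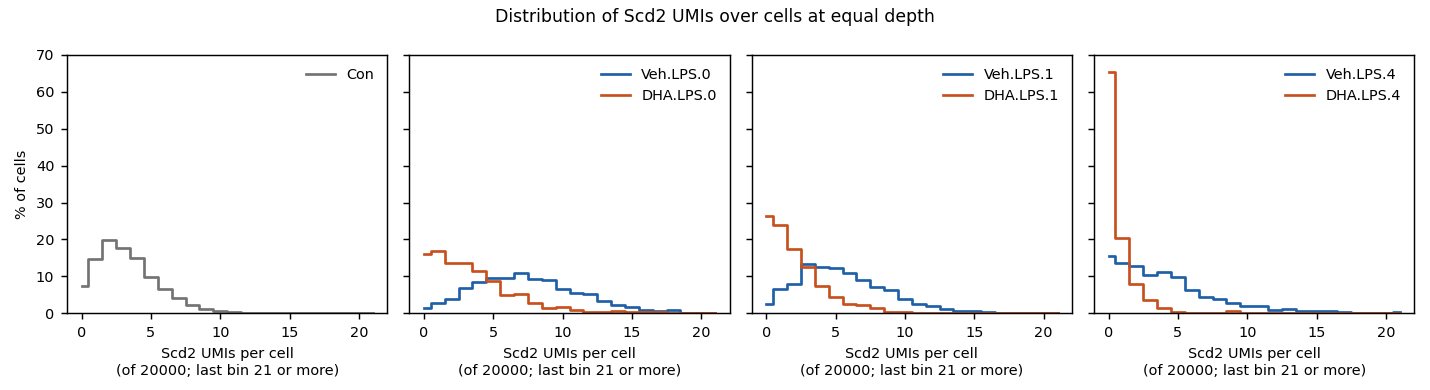
Percent of cells (vertical axis) with each number of Scd2 UMIs (horizontal axis) after thinning every cell to 20000 UMIs, in Con (grey), Veh (blue) and DHA (orange). Cells with no Scd2 UMI make up 1.49% of Veh.LPS.0, 16.1% of DHA.LPS.0 and 65.2% of DHA.LPS.4.

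Within a library, cells with more UMIs of 20 cholesterol enzymes also held more Scd2. In the highest quartile of cells by that sum, mean Scd2 was 9.34 UMIs in Veh.LPS.0, against 5.10 in the lowest, a 1.83-fold difference. The fold was 3.97 in DHA.LPS.0 (5.39 against 1.36), 1.90 and 4.06 in Veh and DHA at 1 h, 3.83 and 4.15 at 4 h, and 1.47 in Con. In DHA.LPS.4 the means were 1.10 and 0.27 UMIs. The cholesterol enzyme sum itself differed between these quartiles by 2.65-fold in Veh.LPS.0 and 3.65-fold in DHA.LPS.0. It differed by 3.01 and 4.51-fold in Veh and DHA at 1 h, 4.02 and 4.16-fold at 4 h, and 2.8-fold in Con. The Scd2 folds thus do not compare libraries at an equal spread of the sum. Spearman's rho over cells between Scd2 and the sum was 0.43 in Veh.LPS.0 (2481 cells) and 0.54 in DHA.LPS.0 (698 cells). Over the 7 libraries it ran from 0.21 in Con to 0.55 in Veh.LPS.4, with 0.27 in DHA.LPS.4. Both measures come from the same cells and libraries. Median depth before thinning was 38702 UMIs in the lowest and 34881 in the highest quartile of Veh.LPS.0, and 46645 and 47954 in those of DHA.LPS.0.

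Scd1 showed the same order, with a UMI in 35.0% of the lowest and 63.4% of the highest quartile in Veh.LPS.0, and in 11.3% and 43.6% in Veh.LPS.4. For Fasn the highest quartile was 1.42-fold over the lowest in Veh.LPS.0, 1.92-fold in Veh.LPS.1 and 2.31-fold in Veh.LPS.4. Elovl6 had 3.21-fold in Veh.LPS.4. Elovl1 stayed at or under 1.47-fold, and Elovl5 lay between 0.936 and 1.63-fold, over the 7 libraries. Proliferation genes moved with these quartiles outside Con, and most in DHA.LPS.0, with 12.5 UMIs of 8 such genes in the lowest and 37.9 in the highest quartile. The fold was 1.52 in Veh.LPS.0, and 0.997 in Con. Within cells of at most 19 proliferation UMIs, the Scd2 fold was 2.08 in Veh.LPS.0 and 4.50 in DHA.LPS.0, and the proliferation genes still differed between the quartiles, by 1.56-fold and 1.80-fold.

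**Figure D5:**
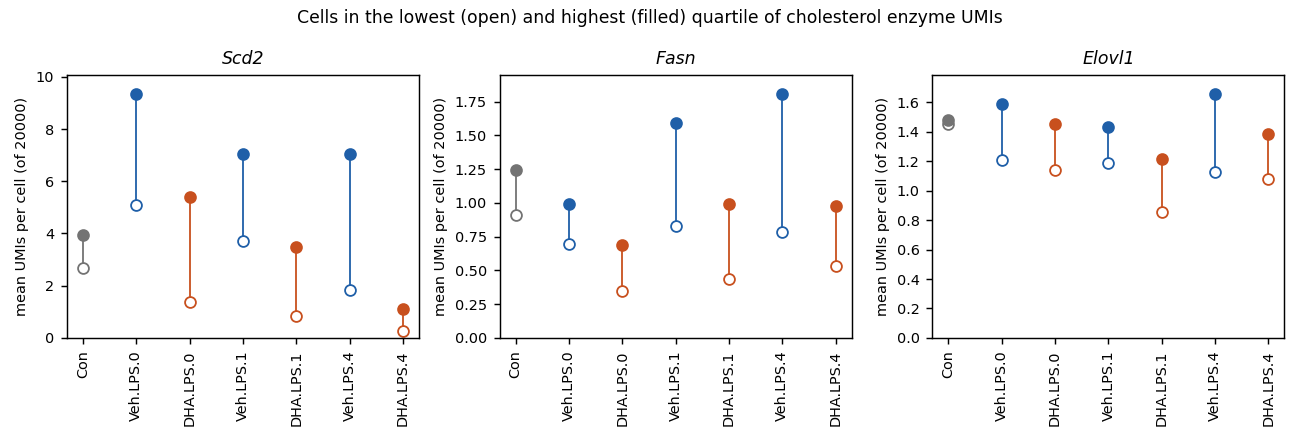
Mean UMIs per cell, thinned to 20000 (vertical axis, from 0), of Scd2, Fasn and Elovl1 in the lowest (open circles) and highest (filled circles) quartile of cells by cholesterol enzyme UMIs, in Con (grey), Veh (blue) and DHA (orange). Scd2 goes from 1.36 to 5.39 in DHA.LPS.0, and the Elovl1 circles of Con nearly coincide at 1.45 and 1.48.

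The proliferation genes also differed between libraries. Their summed level was 2429 CPM in Con, then 1836, 1828 and 481 CPM in Veh and 1354, 1213 and 701 CPM in DHA at 0, 1 and 4 h. It was lower with DHA at 0 and 1 h and higher at 4 h. Scd1, Scd2, Fads2, Elovl6 and Fasn were lower by more than 1.5-fold at all 3 hours. Whether proliferation had a part in these differences was not tested. In cells of at most 19 proliferation UMIs, the log2 ratio of DHA to Veh was -1.22, -1.51 and -2.72 for Scd2 and -2.90, -3.15 and -4.82 for Scd1 at 0, 1 and 4 h. Over every deposited barcode, with the high-mitochondrial ones included, it was -0.89, -1.04 and -2.74 for Scd2.

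Other genes of fatty acid synthesis differed less with DHA than the 10. Both sets were chosen with earlier results of these data known, so this contrast may reflect the choice and is no independent result. Of 25 such genes, 24 were in the tables and 10 to 12 passed the limit on share of cells. With DHA, 0 were past 1.5-fold in either direction at 0 h and at 4 h, and at 1 h only Slc25a1, the mitochondrial citrate carrier, was lower (43.7 against 65.8 CPM). Their median log2 ratios were -0.06, -0.12 and -0.11. Over all genes 0.949%, 1.73% and 2.42% were lower with DHA at 0, 1 and 4 h. With LPS the listed genes did not differ less. At 4 h, 6 of 12 were lower in Veh (median log2 ratio -0.56) and 6 of 12 in DHA cells (-0.58). Over all genes 38.3% and 33.6% were lower. In Veh 1 was higher at 4 h, where 10.2% of all genes were. At 1 h 1 was lower in Veh, where 8.39% of all genes passed in either direction. In DHA cells 1 was lower at 1 h, where 4.97% of all genes were. Slc25a1 went from 25.9 CPM in Con to 71.9 CPM in Veh.LPS.0. With Hacd4, Mid1ip1 and Tecr it made up the 4 genes of 12 higher after serum reduction, where 9.31% of all genes were. Tecr, the reductase that ends each elongation cycle, had 145 CPM in Con, 223 CPM in Veh.LPS.0 and 199 CPM in DHA.LPS.0. Under the limit on share of cells, Acss2, which makes acetyl-CoA from acetate, had 0.493 CPM in Con, then 7.19, 4.86 and 1.95 CPM in Veh and 3.68, 2.14 and 0.544 CPM in DHA. Me1, malic enzyme, which supplies NADPH, was higher with DHA at each hour (22.3 against 17.7 CPM at 0 h), within 1.5-fold.

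Of the regulators, Srebf1 had 16.9 CPM in Con, then 22.7, 20.5 and 13.1 CPM in Veh and 16.4, 14.0 and 10.5 CPM in DHA. Srebf2 had 37.9 CPM in Con, then 79.2, 93.6 and 74.4 CPM in Veh and 59.9, 70.5 and 62.8 CPM in DHA. Both were lower with DHA at each hour, by less than 1.5-fold. Insig1, the sterol-sensing retention protein of SREBP, had 12.2 CPM in Con, then 41.4, 224 and 90.1 CPM in Veh and 25.5, 88.7 and 39.1 CPM in DHA. It was the 1 regulator of 15 past the limit with DHA at each hour. Over all genes 0.949%, 1.73% and 2.42% were lower. Nr1h3, the liver X receptor alpha gene, had 0.485 to 1.34 CPM over the 7 libraries, and Mlxipl and Pparg were at most at 0.0557 CPM. These are levels of mRNA, and SREBP is controlled in large part by cleavage of its protein.

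The 20 cholesterol enzymes stood beside the fatty acid genes in the comparisons with DHA. Of 19 past the limit on share of cells, 11, 17 and 17 were lower with DHA at 0, 1 and 4 h. Over all genes 0.949%, 1.73% and 2.42% were lower. The median log2 ratios of the enzymes were -0.61, -0.86 and -0.86. With LPS, 6 were higher and 0 lower at 1 h in Veh (median log2 ratio 0.19), where 8.39% of all genes passed in either direction. At 4 h in Veh 5 were higher and 4 lower (median -0.13), where 10.2% and 38.3% of all genes were. In DHA cells 3 were higher and 0 lower at 1 h, where 4.97% of all genes were lower. At 4 h in DHA cells 0 were higher and 8 lower (median -0.58), where 33.6% of all genes were lower. The shares of all genes that were higher with LPS in DHA cells are not given here, so the counts of higher enzymes there have no background. At 1 h in Veh, Hmgcs1, with the largest ratio of the list, went from 112 to 412 CPM. Scd1 went from 42.3 to 37.7 CPM. Fasn, with 41.6 and 62.2 CPM, was the only one of the 10 fatty acid genes with a ratio above 1 in that step. DHA and LPS comparisons share libraries, and no relation between them was computed.

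Profiles over the 7 libraries were compared by the root mean square (RMS) difference of centred log2(CPM + 1) among 8766 genes. The 3 genes nearest to Fads2 were the cholesterol enzymes Acat2, Fdps and Lss (0.24 to 0.26), and Acat2 and Fdps, with Pmvk, were also nearest to Scd1, though at 1.00 to 1.09. Near to Acly were Acsl3, an acyl-CoA synthetase, at 0.04 and Mmab at 0.08. Scd2 was nearest to Gcat (0.56), Elovl6 (0.60) and Mylip (0.66). Fasn had Ptpn5, Il18rap and Anapc15 (0.20 to 0.23), Acaca had Ckb, Slc25a13 and Trip6 (0.14 to 0.16), and Elovl6 had AB124611, Jaml and Endod1 (0.18 to 0.22). The profiles of Scd1 and Scd2 themselves deviated from their means by an RMS of 1.80 and 1.09.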

How the data were processed

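The data were 7 droplet 3′ RNA-seq libraries of FLMs (10x Chromium), 1 per condition. The authors deposited, for each library, raw UMI counts per gene and called barcode, with no normalization and no filter on cells. The file headers and the submitters' processing notes give Cell Ranger 3.1.0 and mm10, which is not the version stated in the study's methods. The limits on cells (over 20000 UMIs, at least 2000 genes, under 20% mitochondrial UMIs) follow those methods. A fold of 1.5 in at least 25% of cells is the limit the study set for DHA at 1 and 4 h of LPS. It is used here for every comparison, although the study asked for 50% of cells for DHA at 0 h. For LPS alone the study asked for 50% of cells and 2-fold. Where it set LPS-induced genes against DHA, it used 1.5-fold and 25% of cells for LPS too.

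For each gene, the counts of kept cells of a library were added up and scaled to CPM with Python 3.11.15 and numpy 2.4.6. CPM values carry exact Poisson 95% intervals, ratios exact binomial ones and shares Clopper-Pearson ones (scipy 1.17.1). Differences of ratios use a normal approximation on the log scale. Totals were 22045775 to 125716982 UMIs per library, but the UMIs of each gene set the width of its intervals, and Scd1 had 12 in DHA.LPS.4. The intervals of CPM and of ratios assume pure counting. Variation between cells beyond that, such as the Fano factors of 1.49 to 3.64 for Scd2, is left out of them. UMIs of 1 library are not replicates. TMM factors came from edgeR 4.0.16 (R 4.3.3), and no count model was fitted. Cells were thinned to 20000 UMIs without replacement, and no cell was left out by that step. No doublet caller was run, and the deepest 5% of cells were left out as an alternative. Quartiles within cells of at most 19 proliferation UMIs, and TMM factors for the differences of ratios, were added after seeing the data. The ratios, their intervals and the thinning were tested on simulated Poisson counts. The intervals assume such counts, so the test cannot show how they do with variation between cells or libraries.

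The 10 genes and the gene lists were chosen with earlier results of these data known. Genes outside the 10 were taken from those a rule allows: at most 4 per list and comparison with the largest ratios past the limits, the 3 nearest profiles of genes past 1.5-fold with DHA, and Srebf1, Srebf2, Insig1, Nr1h3 and Slc25a1. Not all genes this rule allows are reported here. Acss2, Me1, Hmgcs1, Scd3, Scd4, Mlxipl, Pparg and Cdc20 were named after their values were seen. Hsd17b8 was not in the tables under that symbol. Coordinates and overlaps are from RefSeq on GRCm38, without strand.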

Additional observations from a re-analysis of the deposited data

How the results depend on the processing

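All 36 ratios past 1.5-fold kept their direction under every alternative: a minimum of 10000 UMIs, every deposited barcode, a mitochondrial share under 10%, the deepest 5% of cells left out, cells low in proliferation genes, TMM factors, an equal weight for each cell, and, chosen after seeing the data, cells of 20000 to 40000 UMIs. With a limit of 2-fold, 3 genes were higher after serum reduction, 3 were lower with DHA at 0 h, 3 at 1 h and 3 at 4 h, and with LPS 3 were lower at 4 h in Veh, 0 at 1 h in DHA and 3 at 4 h in DHA. TMM factors gave 1 gene higher with LPS at 1 h in Veh, 1 higher and 3 lower at 4 h in Veh, and 1 higher and 4 lower at 4 h in DHA. Shares over all genes are given here only for 1.5-fold on the CPM scale. The counts at 2-fold and with TMM factors thus have no background beside them, and show only how the calls moved. A limit of 50% on the share of cells, or none beyond 10 UMIs, kept every count within 1.5 times. Of all 80 ratios, 71 kept their sign. The exceptions were all within 1.5-fold: Elovl1 and Elovl5 with DHA at 1 and 4 h, Elovl6 and Fads1 with LPS at 1 h, and Fads2 and Elovl1 with LPS at 4 h in Veh. Cells of 20000 to 40000 UMIs numbered 121 in Veh.LPS.4 and 192 in DHA.LPS.0, and there the log2 DHA ratio was -0.07 for Fads1 at 4 h and -0.49, within 1.5-fold, for Elovl6 at 0 h. Some ratios moved the other way, past 1.5-fold. Acaca was at -0.66 at 0 h in these cells, and Acly at -0.71 at 0 h and -0.80 at 1 h over every deposited barcode. The cause of these moves was not tested. No paired analysis was possible because there was 1 library per condition, and for the same reason no replicate could be left out. Depth limits Scd1 in DHA.LPS.4 most, at 12 UMIs.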

Other observations

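Of 14 genes of acyl activation and esterification, 12, 11 and 10 passed the limit on share of cells in DHA against Veh at 0, 1 and 4 h. With DHA, 0 were past 1.5-fold at 0 h, 1 was lower at 1 h and 1 at 4 h. Over all genes 0.949%, 1.73% and 2.42% were lower. The median log2 ratios of the list were -0.12, -0.32 and 0.05. Lpin1, a phosphatidate phosphatase, had 7.96 CPM in Con, then 35.8, 34.0 and 7.61 CPM in Veh and 24.4, 18.0 and 7.44 CPM in DHA. Acsl3 had 34.5 CPM in Con, then 68.7, 63.0 and 46.1 CPM in Veh and 50.2, 42.3 and 30.2 CPM in DHA. Acsl1 was higher with DHA, at 41.0, 76.6 and 39.9 CPM against 38.6, 62.8 and 26.7 CPM in Veh, within 1.5-fold at each hour. Acsl1 was named after its values were seen.

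Of 8 genes listed as liver X receptor targets, 5 passed the limit on share of cells at 0 h. Whether each is a target in these cells was not tested. Abcg1, a sterol exporter, stood at 12.1 CPM with DHA against 19.1 CPM in Veh, and Mylip, which marks the LDL receptor for degradation, had 4.57 and 7.80 CPM. Smpdl3a had 17.4 and 9.64 CPM. Of the 5 genes, 4 had ratios of DHA to Veh under 1, and 2 of these were lower by more than 1.5-fold, where 0.949% of 8434 genes were. Smpdl3a was the 1 gene above 1, and passed 1.5-fold upward. The share of all genes higher with DHA is not given here. At 1 h, 4 of the listed genes passed the limit on share of cells, with 0 lower and 1 higher. At 4 h, 2 passed it, with 0 lower and 0 higher. The 3 genes named above were under that limit at 4 h, so these counts leave them out. Their ratios of DHA to Veh there were 0.50 for Abcg1 (0.38 to 0.66), 0.54 for Mylip (0.36 to 0.78) and 1.93 for Smpdl3a (1.60 to 2.32). Mylip was also under the limit at 1 h, at 0.52 (0.40 to 0.66).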
